A study of Mus musculus with 4 samples.

Results

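The genes described here are those of the amino acid arm of the integrated stress response, namely the transcription factor ATF4, the kinases and phosphatase subunit around it, and its known target genes for serine and asparagine synthesis, amino acid transport and tRNA charging. They were chosen by name, not by their values, as probe sets whose platform annotation gives a single gene symbol from a list of 38, though the list was drawn up with earlier results of these arrays known. Of these 38 genes, 36 were measured, out of 19946 genes with a single symbol in the annotation. *Mars* was found under its newer symbol *Mars1*, the only probe set annotated to *Aars* also carries the symbol of another gene and was not used, and *Pycr1* was not analysed here. RNA came from alveolar macrophages (AM), the resident phagocytes of the airspaces, recovered by lavage from untreated mice. The mutant animals were *Trem-2*-/- mice, which lack the myeloid surface receptor TREM-2 and had been backcrossed 10 times to C57/Blk6, and the controls were WT C57/Blk6 mice from a commercial stock bred in the same facility, not described as littermates. All mice were aged 8 to 10 weeks. Each genotype was represented by 2 Affymetrix mouse gene arrays, and each array by RNA of pooled mice. The series design calls the arrays biological duplicates, but how many mice went into each pool is not stated in the sources used here. The p-values below rest on the spread between these 4 arrays, which limma draws toward a spread common to all genes. The number of arrays limits the precision.

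When amino acids run short, uncharged tRNA activates the kinase GCN2, while unfolded protein in the endoplasmic reticulum activates PERK. Both phosphorylate the translation factor eIF2, which lowers protein synthesis in general but favours translation of the *Atf4* mRNA. ATF4 protein then binds, often together with C/EBP proteins, to composite sites near genes that make, import or charge amino acids, of which *Asns* and *Trib3* are standard indicators. ATF4 activity is therefore set mainly by translation, and the level of its own mRNA, which is what an array measures, need not follow it.

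The targeted gene was checked first. *Trem2* had log2 values of 7.64 and 7.45 on the *Trem-2*-/- arrays, against 9.58 and 9.74 on the WT arrays (log2 fold change −2.11, adjusted p = 0.0009 from limma), so the arrays went with their labels. Of 13 markers of AM, 10 were measured, at mean log2 values of 6.40 to 12.78 with a median of 10.23, in a table whose array medians were 5.84 to 5.86. Values throughout are log2 signals after robust multi-array averaging (RMA) by the authors, and a difference of 1 is a doubling of signal.

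*Asns*, which encodes asparagine synthetase, was the only gene of this response that passed the test between genotypes, and it was lower in *Trem-2*-/- AM. Of the 36 measured genes, 1 was lower and none was higher at an adjusted p below 0.05 from limma, while among all genes measured 0.135% were lower and 0.431% were higher. Without adjustment for the number of genes, 6 of 36 had a p below 0.05 in limma with a lower value in *Trem-2*-/- AM (16.7%, against 6.9% of all genes) and none with a higher value (4.64% of all genes). Both *Trem-2*-/- arrays lay below both WT arrays in 14 of the 36 genes (38.9%, against 25.4% of all genes) and above them in 5 (13.9%, against 17.4% of all genes). These shares are given as a description, without a test of the group.

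Most of the response lay close to 0, as did most genes of the whole table. The median log2 fold change (*Trem-2*-/- over WT) was −0.04 over the 36 genes and −0.02 over all genes. Of all 19946 genes, 17097 lay within 0.2 log2 units of 0, and of the 36 genes 31 did. The 5 beyond that were *Asns*, *Psat1*, *Mthfd2*, *Slc7a5* and *Chac1*, all lower in *Trem-2*-/- AM. Standard errors from limma ran from 0.07 to 0.16 over the 36 genes, with a median of 0.08.

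**Figure D1:**
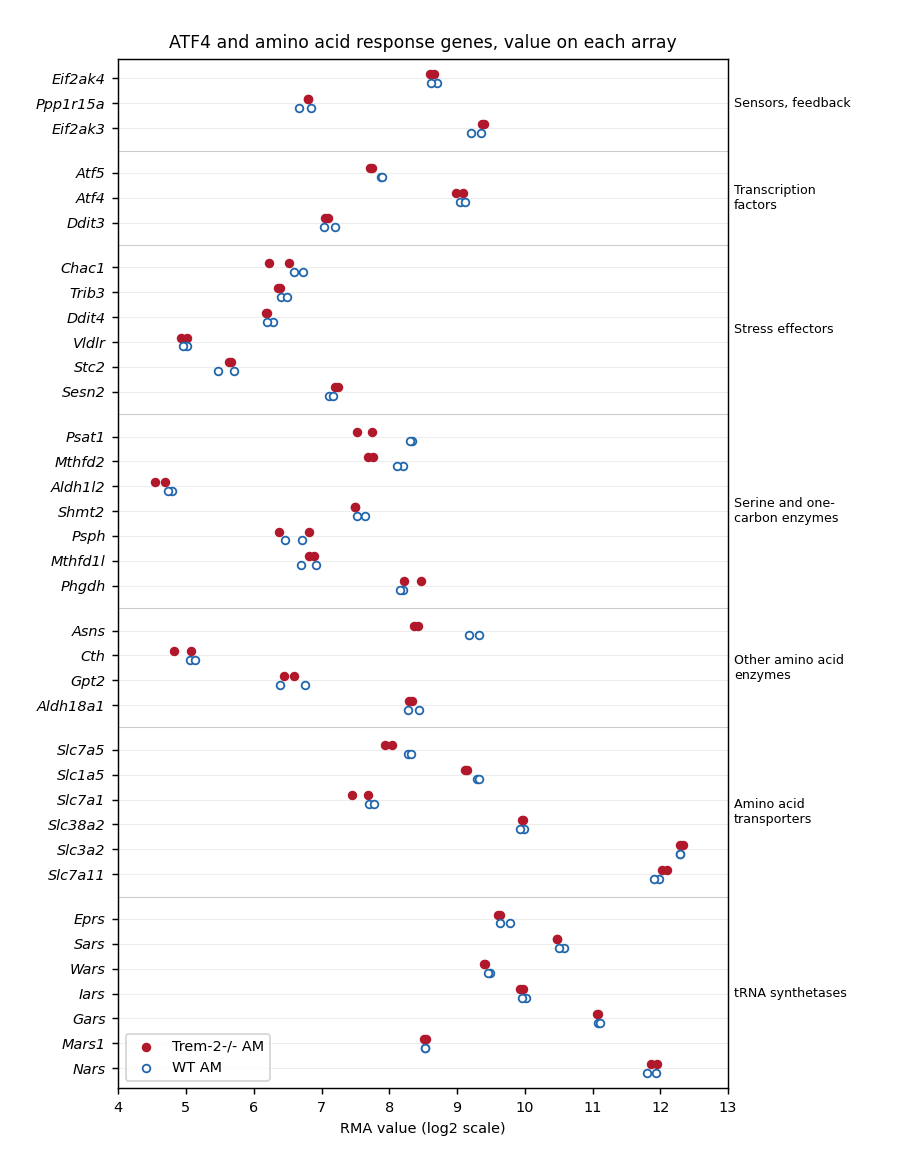
RMA value of each measured gene on each array (x axis, log2 scale), grouped by role, with filled red circles for the 2 Trem-2-/- arrays and open blue circles for the 2 WT arrays. The circles of the genotypes are clearly apart for Asns, Psat1 and Mthfd2, and lie close together for the tRNA synthetases.

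*Asns* makes asparagine from aspartate and glutamine. Its log2 values were 8.37 and 8.42 on the *Trem-2*-/- arrays, against 9.32 and 9.18 on the WT arrays. The lowest WT array thus lay well above the highest *Trem-2*-/- array, and the arrays of a genotype differed little. The mean was 8.39 ± 0.04 in *Trem-2*-/- AM and 9.25 ± 0.10 in WT AM (SD, n = 2 arrays each), a log2 fold change of −0.86 (standard error 0.08, 95% interval −1.06 to −0.66, adjusted p = 0.015 from limma), or 0.551 times the WT signal. By this difference *Asns* held rank 11 from the lowest among 19946 genes. The call was lost in each fit to 3 of the 4 arrays, where limma gave log2 fold changes of −0.93 to −0.79 and adjusted p of 0.051 to 0.13, and when all 35557 probe sets were tested together (adjusted p = 0.18 from limma).

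Promoter windows are shown for the genes that carry the best known feature of this response, the composite site bound by ATF4 with C/EBP proteins. The windows are RefSeq sequences of build GRCm38.p6, reaching from 250 bases before to 50 bases after the annotated start, and were found for 30 of the 36 measured genes by gene identifier. The motif searched was TGATGNAA, on both strands. It was present in windows of 7 of these 30 genes, *Asns*, *Chac1*, *Trib3*, *Slc7a11*, *Vldlr*, *Gars* and *Iars*, that is, in 7 of 35 windows or 20%, against 3.97% of 32851 windows of all genes. The 4 below are *Asns*, the gene called, and the 3 others with the largest difference in either direction. Capitals mark the motif, which reads TTGCATCA or TTACATCA where it lies on the opposite strand.
Asns, chr6:7693160-7693459, minus strand: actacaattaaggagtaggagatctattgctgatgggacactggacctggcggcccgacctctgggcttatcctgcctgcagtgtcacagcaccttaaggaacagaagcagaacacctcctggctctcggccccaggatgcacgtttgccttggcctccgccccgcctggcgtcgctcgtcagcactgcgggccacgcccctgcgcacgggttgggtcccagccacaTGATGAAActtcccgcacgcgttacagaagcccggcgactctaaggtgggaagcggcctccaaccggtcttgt
Chac1, chr2:119350992-119351291, plus strand: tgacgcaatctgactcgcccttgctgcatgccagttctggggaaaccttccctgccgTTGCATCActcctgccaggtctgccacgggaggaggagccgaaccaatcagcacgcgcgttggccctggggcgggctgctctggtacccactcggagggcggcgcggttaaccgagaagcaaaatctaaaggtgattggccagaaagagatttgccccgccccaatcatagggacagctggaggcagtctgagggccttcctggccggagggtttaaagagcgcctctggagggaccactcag
Slc7a11, chr3:50443564-50443863, minus strand: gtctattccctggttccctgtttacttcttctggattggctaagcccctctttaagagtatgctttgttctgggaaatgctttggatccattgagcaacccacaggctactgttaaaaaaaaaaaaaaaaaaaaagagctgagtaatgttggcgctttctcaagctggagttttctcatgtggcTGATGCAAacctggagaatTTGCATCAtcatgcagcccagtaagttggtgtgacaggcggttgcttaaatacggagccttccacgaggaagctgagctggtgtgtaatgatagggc
Trib3, chr2:152344011-152344310, minus strand: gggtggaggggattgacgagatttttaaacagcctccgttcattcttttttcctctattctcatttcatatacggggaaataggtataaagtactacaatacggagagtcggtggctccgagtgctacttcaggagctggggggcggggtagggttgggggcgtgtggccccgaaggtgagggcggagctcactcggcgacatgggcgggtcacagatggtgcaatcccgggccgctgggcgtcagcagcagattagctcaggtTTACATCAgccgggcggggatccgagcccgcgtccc

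In *Asns* the motif began 23 bases before the start. In *Chac1* it began 193 bases before the start on the opposite strand, in *Slc7a11* it occurred on both strands, 66 and 47 bases before the start, and in *Trib3* it lay 14 bases after the start on the opposite strand. *Asns* was lower in *Trem-2*-/- AM, whereas the other 6 genes with the motif had log2 fold changes from −0.29 for *Chac1* to 0.12 for *Slc7a11* and none passed the test. The median log2 fold change was −0.03 over the 7 genes with the motif and −0.04 over the 23 with a window and no match. *Psat1* and *Mthfd2*, the genes with the next largest differences after *Asns*, were among these 23, which says only that these letters were not in their windows.

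**Figure D2:**
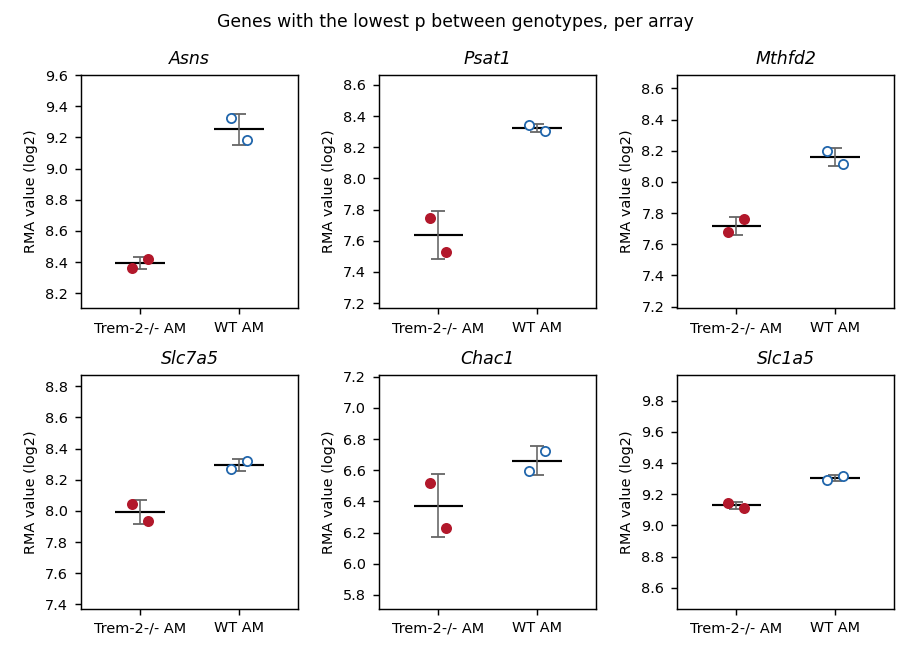
RMA values (y axis, log2 scale, each panel spanning the same range) of the 6 genes with the lowest p in limma, with filled red circles for Trem-2-/- arrays and open blue circles for WT arrays. Black bars are means and grey whiskers SDs of 2 arrays. Both Trem-2-/- arrays lie below both WT arrays in all 6 panels, furthest for Asns (−0.86) and Psat1 (−0.68), and adjusted p was below 0.05 for Asns alone.

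Serine is made from a glycolytic intermediate in successive steps by PHGDH, PSAT1 and PSPH. *Psat1*, the aminotransferase of the middle step, had log2 values of 7.75 and 7.53 on the *Trem-2*-/- arrays, against 8.34 and 8.30 on the WT arrays. The genotypes did not overlap, but the *Trem-2*-/- arrays lay further from each other than the WT arrays did. The log2 fold change was −0.68 (standard error 0.09, 95% interval −0.91 to −0.45), and it missed the threshold (adjusted p = 0.055 from limma). *Psat1* passed when the variance was fitted with an intensity trend (adjusted p = 0.00020 from limma), when genes with a mean log2 value below 6 were left out (adjusted p = 0.0068 from limma) and when each array was centred on its median (adjusted p = 0.040 from limma). It did not pass in any fit to 3 of the 4 arrays, where limma gave adjusted p of 0.10 to 0.25.

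Neither of the enzymes before and after it passed the test. *Phgdh*, which commits carbon to serine, had 8.46 and 8.21 on the *Trem-2*-/- arrays, against 8.20 and 8.16 on the WT arrays, which is a difference of 0.16 on the log2 scale (95% interval −0.09 to 0.40; adjusted p = 0.61, limma). *Psph*, the phosphatase of the last step, had 6.81 and 6.37 on the *Trem-2*-/- arrays, against 6.46 and 6.71 on the WT arrays. Its arrays overlapped, and its 95% interval, −0.39 to 0.39, was the widest of all 36 genes. Whether the difference of *Psat1* was unlike that of its neighbours was not tested.

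*Mthfd2*, a mitochondrial folate dehydrogenase that carries forward the carbon unit released from serine, had log2 values of 7.68 and 7.76 on the *Trem-2*-/- arrays, against 8.20 and 8.12 on the WT arrays. The genotypes did not overlap and the arrays of each lay within 0.1 log2 units. The log2 fold change of −0.44 (standard error 0.08, 95% interval −0.63 to −0.25) did not pass the test (adjusted p = 0.11 from limma). It did pass with an intensity trend and robust variance together (adjusted p = 0.0045 from limma) and without genes of a mean log2 value below 6 (adjusted p = 0.017 from limma). *Shmt2*, the mitochondrial hydroxymethyltransferase just before it, had 7.50 and 7.49 on the *Trem-2*-/- arrays, against 7.64 and 7.52 on the WT arrays. *Mthfd1l*, which releases formate after it, differed by 0.04 with overlapping arrays. *Aldh1l2*, which oxidizes the folate-bound unit to carbon dioxide, was dim, with 4.54 and 4.69 on the *Trem-2*-/- arrays, against 4.80 and 4.73 on the WT arrays, not far above the lower quartile of the arrays (4.39 to 4.40).

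The other genes of serine, glycine and folate metabolism gave no called gene, with 0 of 11 measured members higher or lower and a median log2 fold change of −0.01 (unadjusted p below 0.05 in limma for 1 higher and 1 lower). *Tyms*, the thymidylate synthase that consumes folate units for DNA, had the largest difference, −0.37 with an adjusted p of 0.46 from limma, and its *Trem-2*-/- arrays at 6.17 and 6.52 stayed just below the WT arrays at 6.90 and 6.53. With 1 array left out, the difference of *Tyms* lay anywhere between −0.55 and −0.18. *Srr*, serine racemase, differed by 0.21 (adjusted p = 0.36 from limma). Of the cytosolic counterparts, named here after their values were seen, *Mthfd1* had a log2 fold change of −0.20 and *Shmt1* one of 0.08, and neither passed (adjusted p = 0.39 and 0.785 from limma).

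**Figure D3:**
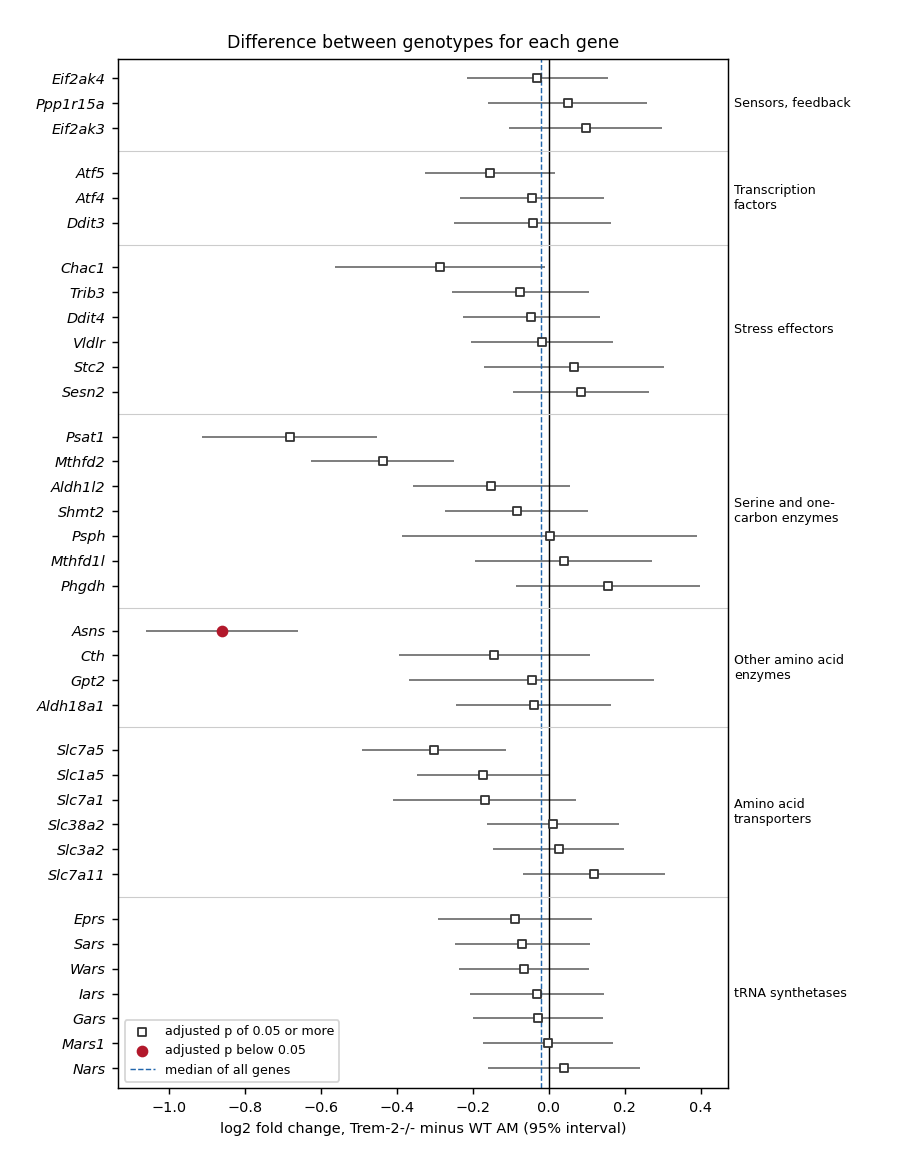
Difference between Trem-2-/- and WT AM (x axis, log2 fold change) of each gene with its 95% interval from limma, grouped by role. The filled red circle marks the gene with an adjusted p below 0.05, open squares the others, and the dashed line the median of all genes. Asns lies furthest left at −0.86, followed by Psat1 at −0.68 and Mthfd2 at −0.44, and the tRNA synthetases lie between −0.09 and 0.04.

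Among the remaining enzymes, none passed the test. *Aldh18a1*, which makes the proline precursor from glutamate, had 8.33 and 8.29 on the *Trem-2*-/- arrays, against 8.27 and 8.43 on the WT arrays. *Gpt2*, the mitochondrial alanine aminotransferase, had 6.45 and 6.60 on the *Trem-2*-/- arrays, against 6.75 and 6.38 on the WT arrays, and *Cth*, which makes cysteine from cystathionine, had 5.08 and 4.82 on the *Trem-2*-/- arrays, against 5.06 and 5.14 on the WT arrays. All overlapped between genotypes. Of 13 further enzymes of glutamine, aspartate, proline and cysteine metabolism, none was higher or lower in limma (none with an unadjusted p below 0.05 either), and *Got1*, the cytosolic aspartate aminotransferase, had the largest difference at −0.18 (adjusted p = 0.44 from limma), followed by *Pycrl* at −0.12.

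None of the 6 transporters passed the test. In 3 of them both *Trem-2*-/- arrays lay below both WT arrays (25.4% of all genes did so), and in 2 they lay above (17.4% of all genes). *Slc7a5*, the light chain of the transporter LAT1 for large neutral amino acids, had log2 values of 8.05 and 7.94 on the *Trem-2*-/- arrays, against 8.27 and 8.32 on the WT arrays. Its log2 fold change of −0.30 (95% interval −0.49 to −0.11) did not pass the test (adjusted p = 0.24 from limma). *Slc1a5*, the glutamine carrier ASCT2, had 9.15 and 9.11 on the *Trem-2*-/- arrays, against 9.29 and 9.32 on the WT arrays, and *Slc7a1*, a carrier of arginine and lysine, had 7.45 and 7.69 on the *Trem-2*-/- arrays, against 7.70 and 7.77 on the WT arrays. In all of these, both *Trem-2*-/- arrays lay below both WT arrays, by a narrow margin for *Slc7a1*.

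The other 3 transporters had log2 fold changes of 0.01 to 0.12, and in *Slc3a2* and *Slc7a11* both *Trem-2*-/- arrays lay above both WT arrays. *Slc3a2*, the heavy chain that pairs with the light chains of LAT1 and of the cystine carrier, had 12.33 and 12.30 on the *Trem-2*-/- arrays, against 12.29 and 12.29 on the WT arrays. *Slc7a11*, the cystine carrier xCT, had 12.02 and 12.10 on the *Trem-2*-/- arrays, against 11.98 and 11.90 on the WT arrays, which is a difference of 0.12 on the log2 scale (95% interval −0.07 to 0.31; adjusted p = 0.61, limma). *Slc38a2*, the carrier SNAT2, which is induced by amino acid shortage, had 9.96 and 9.98 on the *Trem-2*-/- arrays, against 9.98 and 9.93 on the WT arrays. *Slc7a11* is also a target of the antioxidant factor NRF2, and of 9 other NRF2 targets measured none was called in limma, with 1 higher and none lower at an unadjusted p below 0.05 (*Hmox1* at 0.25 and *Srxn1* at −0.13 had the largest differences). Of 22 further amino acid transporters of the plasma membrane, none was called either. *Slc43a2* at 0.28 and *Slc1a3* at −0.23 had the largest differences (adjusted p = 0.30 and 0.43 from limma), and 1 gene in each direction had an unadjusted p below 0.05.

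The regulators themselves did not differ past the threshold. *Atf4* had log2 values of 9.08 and 8.99 on the *Trem-2*-/- arrays, against 9.05 and 9.12 on the WT arrays. The arrays overlapped, and the 95% interval of the log2 fold change, −0.24 to 0.14, did not reach the size of the difference in *Asns*. *Ddit3*, encoding the proapoptotic factor CHOP, had 7.05 and 7.09 on the *Trem-2*-/- arrays, against 7.19 and 7.03 on the WT arrays, again with overlap. *Atf5*, a related factor that is also under translational control, had 7.72 and 7.74 on the *Trem-2*-/- arrays, against 7.88 and 7.89 on the WT arrays. Its genotypes were apart with a tight spread, but the log2 fold change of −0.15 did not pass the test (adjusted p = 0.47 from limma).

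Upstream of them, *Eif2ak4*, encoding GCN2, differed by −0.03, and *Eif2ak3*, encoding PERK, by 0.10, and *Ppp1r15a*, encoding the phosphatase subunit GADD34 that ends the response, by 0.05. Their 95% intervals together ran from −0.22 to 0.30. Among 14 other genes of the integrated stress response, the largest difference was in *Atf3*, a stress-induced repressor of transcription, with 9.96 and 9.99 on the *Trem-2*-/- arrays, against 10.42 and 10.42 on the WT arrays. The arrays of each genotype almost coincided, yet the log2 fold change of −0.44 did not pass over all genes (adjusted p = 0.080 from limma). *Atf3* did pass with an intensity trend and robust variance (adjusted p = 0.00010 from limma). None of these 14 was called, with 1 lower and none higher at an unadjusted p below 0.05 in limma, and *Nupr1*, a chromatin protein induced by stress, followed at 0.20 (adjusted p = 0.54 from limma).

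None of the 6 stress effectors passed the test. *Chac1*, which degrades glutathione, had log2 values of 6.52 and 6.23 on the *Trem-2*-/- arrays, against 6.60 and 6.73 on the WT arrays. The genotypes did not overlap but came close, and the log2 fold change of −0.29 (95% interval −0.56 to −0.01) did not pass the test (adjusted p = 0.42 from limma). Its size moved with single arrays. Leaving out *Trem-2*-/- replicate 1 gave −0.43, and leaving out the other array of that genotype gave −0.14. *Trib3*, a pseudokinase that restrains ATF4 and a standard reporter of its activity, had 6.36 and 6.39 on the *Trem-2*-/- arrays, against 6.41 and 6.49 on the WT arrays. This was a log2 fold change of −0.07 with a 95% interval of −0.26 to 0.11, which did not reach the size of the difference in *Asns*. The mean level of *Trib3* was 6.41, near the median of 6.29 over all genes, against 8.82 for *Asns*. Whether a difference shows equally at these levels was not tested. *Sesn2* and *Ddit4*, which restrain the growth kinase complex mTORC1, differed by 0.09 and −0.05. *Stc2*, a secreted glycoprotein, and *Vldlr*, a lipoprotein receptor, differed by 0.07 and −0.02. Both had levels below the median of the arrays, and in both the genotypes overlapped.

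The cytosolic aminoacyl-tRNA synthetases, which load each tRNA with its amino acid, lay close together. All 7 measured genes had log2 fold changes within 0.1 of 0, from −0.09 for *Eprs*, which charges both glutamate and proline tRNA, to 0.04 for *Nars*, the asparagine enzyme. In the whole table, 11565 of 19946 genes lay within 0.1 of 0. *Nars* had log2 values of 11.87 and 11.95 on the *Trem-2*-/- arrays, against 11.93 and 11.81 on the WT arrays. The arrays overlapped. *Sars* had 10.47 and 10.47 on the *Trem-2*-/- arrays, against 10.58 and 10.51 on the WT arrays, and *Gars*, the glycine enzyme, had 11.08 and 11.06 on the *Trem-2*-/- arrays, against 11.09 and 11.11 on the WT arrays. *Mars1*, the methionine enzyme, differed by less than 0.01. *Iars* was read by 2 probe sets, with log2 fold changes of −0.03 and 0.04. The 95% intervals of all 7 lay between −0.29 and 0.24.

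*Wars*, the tryptophan enzyme, is also induced by interferon, and it had 9.42 and 9.39 on the *Trem-2*-/- arrays, against 9.48 and 9.46 on the WT arrays. Of 9 other interferon-induced genes measured, 3 rose in *Trem-2*-/- AM, *Cxcl10* (1.16), *Gbp5* (0.89) and *Gbp3* (0.70), and none fell (adjusted p = 0.0070, 0.020 and 0.049 from limma). Of all genes, 0.431% were called higher. Over the fits to 3 of the 4 arrays, the log2 fold change of *Gbp3* ran from 0.59 to 0.80 and its call was lost in each. The 95% interval of *Wars* was −0.24 to 0.11. Of the synthetases outside the ATF4 list, none of 11 cytosolic and none of 16 mitochondrial genes was called in limma, each with 1 lower and none higher at an unadjusted p below 0.05. *Farsb*, a phenylalanine subunit, was the lowest of the cytosolic group, with 10.50 and 10.49 on the *Trem-2*-/- arrays, against 10.81 and 10.71 on the WT arrays (log2 fold change −0.27, adjusted p = 0.28 from limma), and *Rars*, the arginine enzyme, followed at −0.10. The lowest of the mitochondrial group were *Vars2* at −0.23 and *Mars2* at −0.22, the valine and methionine enzymes.

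The arms of the stress response that run beside ATF4 were also without a called gene. Of 22 genes of the unfolded protein response governed by ATF6 and XBP1, none was higher or lower in limma, with 2 higher and 1 lower at an unadjusted p below 0.05 and a median log2 fold change of −0.02. *Dnajb9*, a chaperone cofactor, at 0.24 and *Sdf2l1*, a partner of the chaperone BiP, at −0.22 had the largest differences (adjusted p = 0.38 and 0.43 from limma). *Hspa5*, BiP itself, had 12.35 and 12.35 on the *Trem-2*-/- arrays, against 12.34 and 12.41 on the WT arrays, and is named after its values were seen. Neither the 8 CHOP targets and *Trib* relatives nor the 15 genes of amino acid sensing by mTORC1 held a called gene, and none of them had an unadjusted p below 0.05 in limma. *Car6* at 0.22 and *Bcl2l11* at 0.12 led the first of these lists, and *Sesn1* at 0.21 and *Rragd* at 0.19 led the other.

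**Figure D4:**
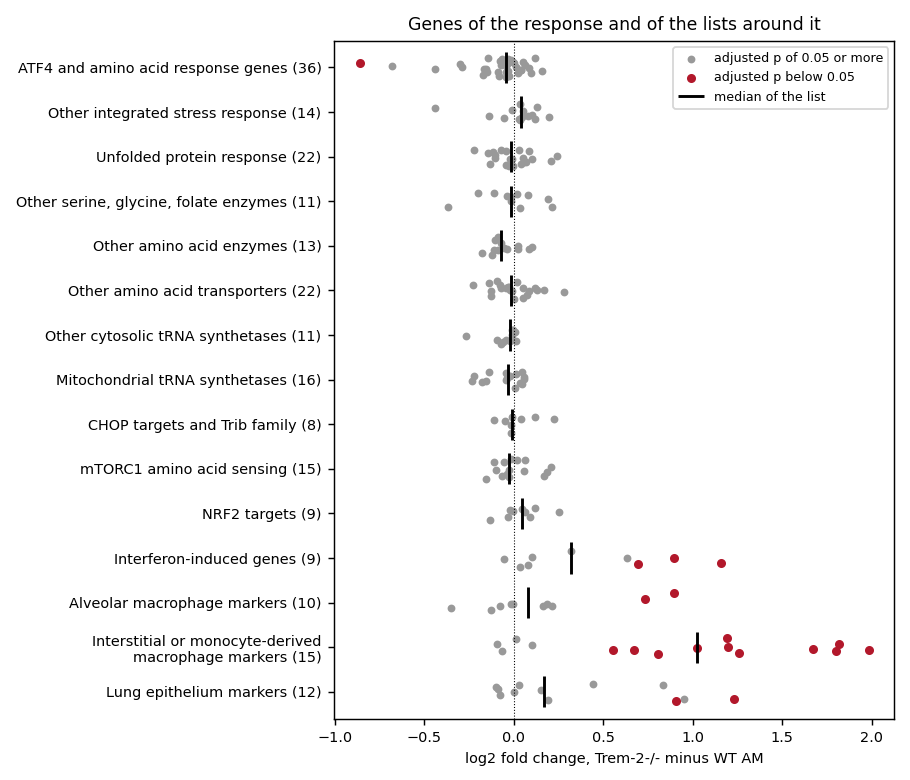
Difference between Trem-2-/- and WT AM (x axis, log2 fold change) of each measured gene in the ATF4 group and in the lists around it, apart from those of neutrophils, lymphocytes and dendritic cells, with the number of genes in brackets. Red marks the genes called by limma at the 0.05 threshold and grey the rest, with medians as black bars. Asns is the single red point among the stress response and amino acid lists, and the macrophage and epithelial markers below reach 1.98.

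Genes listed as markers of other cells also differed between the genotypes. Such lists name genes and not cells. Of 15 measured markers of interstitial or monocyte-derived macrophages, 11 rose in *Trem-2*-/- AM (0.431% of all genes were called higher) and none fell, led by *Pf4* (1.98), *C1qc* (1.81), *C1qb* (1.80) and *Apoe* (1.67). The 4 not called lay near 0, *Cd163* (0.10), *Mrc1* (0.02), *Folr2* (−0.07) and *Lyve1* (−0.09), and are named after their values were seen. *C1qb*, a chain of complement C1q, had 8.38 and 8.40 on the *Trem-2*-/- arrays, against 6.58 and 6.59 on the WT arrays, where it was above the array medians. The summed log2 value of the 15 genes was 125.9 to 126.2 on the *Trem-2*-/- arrays, against 111.9 to 112.3 on the WT arrays. Of 12 markers of lung epithelium, 2 rose, *Cldn18* (1.23) and *Scgb1a1* (0.91), with sums of 73.5 to 73.6 on the *Trem-2*-/- arrays, against 68.9 to 69.2 on the WT arrays. The epithelial genes did not all go one way. Both *Trem-2*-/- arrays lay above both WT arrays in 6 of the 12 (17.4% of all genes did so) and below them in 3 (25.4% of all genes). These 3 were *Sftpb* (−0.10), *Epcam* (−0.09) and *Sftpa1* (−0.08), which are named after their values were seen. At an unadjusted p below 0.05 in limma, 6 were higher (4.64% of all genes were) and none was lower (6.9% of all genes). Beside *Cldn18* and *Scgb1a1*, these were *Krt18* (0.95), *Krt8* (0.83), *Sftpc* (0.44) and *Lamp3* (0.19), also named after their values were seen. Of 10 AM markers, *Car4* (0.90) and *Fabp1* (0.74) rose and none fell, with sums of 101.5 to 102.0 on the *Trem-2*-/- arrays, against 99.9 to 100.3 on the WT arrays. The calls of *Fabp1* and *Scgb1a1* were lost in each fit to 3 of the 4 arrays, and that of *Car4* in some. The 10 genes were split into 5 with a positive and 5 with a negative difference, and at an unadjusted p below 0.05 in limma 4 were higher and 1 lower, *Krt79* at −0.35, named after its value was seen. No neutrophil, lymphocyte or dendritic cell marker was called in limma, with 1 neutrophil and 1 dendritic cell marker higher at an unadjusted p below 0.05. The largest differences there were those of *Ltf* (0.35) and *Ngp* (0.30) for neutrophils, *Cd3d* (0.22) and *Cd4* (0.13) for lymphocytes, and *Ccr7* (0.36) and *Clec9a* (−0.34) for dendritic cells. In RNA of a whole cell pool, a smaller share of cells that express *Asns* and less *Asns* RNA per cell cannot be told apart, and the part of other cells in the differences of *Asns*, *Psat1* and *Mthfd2* was not tested.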

How the data were processed

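AM RNA from 2 *Trem-2*-/- and 2 WT pools was hybridized to Affymetrix mouse gene 1.0 ST arrays. The authors normalized the arrays together by RMA (background correction, quantile normalization, probe set summary) and deposited the values on a log2 scale. RMA and the build mm9 are named in the submitters' processing notes. RMA draws arrays to one distribution, so a shift common to all genes would not be seen. Scanner intensities were not used here.

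Probe sets were named through the platform annotation (21797 with 1 symbol, 1613 with several, 12147 not listed), and the probe set with the highest mean was kept per gene. All 19946 genes entered one two-sided limma fit (lmFit and eBayes, version 3.58.1, under R 4.3.3). Adjustment was by Benjamini-Hochberg over these genes, the threshold was 0.05, and no filter was used. The methods name significance analysis of microarrays (SAM), which was run as an alternative from code written for this comparison. The code was tested on simulated data. Further alternatives were the replicate number as a block, a variance that is robust and follows intensity, repeated quantile normalization, median centring, a minimum mean log2 value of 6, averaged probe sets per gene, a test of every probe set and leaving out each array.

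The 36 genes and the 17 lists around them (214 of 234 names measured) were chosen with earlier results of these data known. Named are all members, up to 4 called genes of each list, or the 2 with the largest difference where none was called. The lists were described by counts and medians, without a set test.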

Additional observations from a re-analysis of the deposited data

How the results depend on the processing

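*Asns* kept its direction under every alternative run and its call under all but the test of all rows as probe sets and the 4 fits that left out 1 array, which have fewer arrays. SAM called *Asns* alone among the 36 genes, as the main test did. The number of lower genes among the 36 was 4 with an intensity trend and robust variance (*Asns*, *Psat1*, *Mthfd2* and *Slc7a5*), 3 with a minimum mean log2 value of 6 (*Asns*, *Psat1* and *Mthfd2*), 2 with median centring (*Asns* and *Psat1*), 0 with all rows as probe sets and 0 to 0 with 1 array left out, and no setting gave a higher one. The same-numbered arrays did not deviate together over the whole table (correlation −0.05 over 19946 genes). One correlation over all genes cannot show whether they shared a batch, which was not tested. With the replicate block there were 2 lower genes, *Asns* and *Psat1* (adjusted p = 0.030 from limma for *Psat1*), and 98 higher and 31 lower genes in the whole table. The whole table held 86 higher and 27 lower genes, against 173 and 19 by SAM, 379 and 290 with the trend, 207 and 150 with the minimum of 6, 21 and 2 with all rows as probe sets, and 22 to 43 and 4 to 7 with 1 array left out. With the trend, genes named from the lists passed too, *Atf3* and *Farsb* lower and *Hmox1*, *Slc43a2* and *Dnajb9* higher (adjusted p = 0.00010, 0.0078, 0.0053, 0.021 and 0.042 from limma). The cause of these shifts was not tested. The median over the 36 genes ran from −0.071 to −0.018 over the fits to 3 arrays. Among the called genes named from the lists, *Gbp3*, *Fabp1* and *Scgb1a1* lost their call in each of these fits. *Gbp5*, *Car4*, *Cxcl10* and *Cldn18* lost theirs in some, and *Pf4*, *C1qc*, *C1qb* and *Apoe* in none.

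Several genes near 0, and *Cd3d* at 0.22, changed sign, none of them called. Repeated quantile normalization gave −0.0042 for *Psph*, −0.0014 for *Slc38a2* and −0.0073 for *Slc3a2*, median centring gave 0.0057 for *Mars1*, and the mean of probe sets gave 0.0036 for *Iars*. Over the fits to 3 of the 4 arrays the lowest and highest log2 fold changes were −0.072 and 0.012 for *Eif2ak4*, −0.038 and 0.14 for *Ppp1r15a*, −0.093 and 0.0020 for *Atf4*, −0.12 and 0.040 for *Ddit3*, −0.062 and 0.026 for *Vldlr*, −0.053 and 0.18 for *Stc2*, −0.22 and 0.22 for *Psph*, −0.070 and 0.15 for *Mthfd1l*, −0.23 and 0.14 for *Gpt2*, −0.12 and 0.039 for *Aldh18a1*, −0.015 and 0.037 for *Slc38a2*, −0.013 and 0.00996 for *Mars1*, −0.023 and 0.10 for *Nars* and −0.0036 and 0.44 for *Cd3d*, a lymphocyte marker.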
